A study of Mus musculus with 16 samples.

Results

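Tlcd3b and Rflnb are the genes described here, together with Rflna, the paralogue of Rflnb, and Flna, whose protein the refilins bind. The 4 genes were taken by symbol from a table of 37003 genes, and all 4 were among the 31085 genes with enough counts to be tested. Tlcd3b and Rflnb were chosen by their log2 fold changes between genotypes, being much lower in brain endothelial cells (bECs) without YAP/TAZ, so their differences between genotypes are given as a description, with no test. Rflna and Flna were added as the paralogue and the binding partner of Rflnb.

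RNA of bECs was sequenced in 16 libraries, 4 in each of 4 groups, and each library was a pool of adult mice. Both sexes were used in the study. YT-iKO mice carried Pdgfb-iCreERT2+/-, a transgene that also holds an eGFP reporter, with Yapfl/fl and Wwtr1fl/fl, and CTRL mice were littermates with the same floxed alleles and no Cre transgene (Pdgfb-iCreERT2+/+). Mice of both genotypes received tamoxifen before surgery, and Cre was driven by the Pdgfb promoter, which is active in endothelium. Mice underwent 30 min middle cerebral artery occlusion (MCAo) or sham surgery, and CD31+ CD45- DAPI- cells were sorted 72 hours later. Counts per library ranged from 11418262 to 23074547, with a median of 16441012. Levels are given as CPM, the counts of a gene relative to the library total after scaling by TMM factors over all genes tested. The summed level of 8 endothelial markers was 8830 to 18528 CPM per library, against 462.7 to 1338 CPM for 10 pericyte and smooth muscle markers, 27.2 to 70.2 CPM for 7 neuronal markers, 29.3 to 58.7 CPM for 5 astrocyte markers, 16.9 to 34.8 CPM for 5 fibroblast markers, 7.11 to 22.5 CPM for 4 oligodendrocyte markers and 3.74 to 30.3 CPM for 6 microglia and macrophage markers. The targeted genes were lower in all 8 YT-iKO libraries than in any CTRL library. Yap1 had 111.8 ± 0.510 CPM in CTRL sham and 49.3 ± 9.70 CPM in YT-iKO sham (SD, n = 4 here and for every group below), and Wwtr1, which encodes TAZ, had 264.7 ± 9.66 and 72.1 ± 20.9 CPM. Counts covered whole genes, so they include any reads from exons outside the deleted parts.

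YAP and TAZ are coactivators that enter the nucleus when Hippo signalling is low or mechanical load is high and switch on genes through TEAD transcription factors, and many of their known targets belong to the cytoskeleton and the matrix. Filamin A, the product of Flna, crosslinks actin filaments and ties them to integrins and other membrane proteins. Rflnb and Rflna encode refilins, small proteins that bind filamins and favour the bundling of actin filaments. Tlcd3b, formerly Fam57b, encodes a membrane protein with a TLC domain, the domain shared by the ceramide synthases, and has been linked to ceramide synthesis.

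All positions are on GRCm38 with the GENCODE M21 annotation. Tlcd3b (ENSMUSG00000058966) lies on the plus strand at chr7:126797668-126830219, with 7 annotated transcripts that start at several places and 3935 bases of exon. Rflnb (ENSMUSG00000020846) has 1 annotated transcript, on the minus strand at chr11:76019194-76027782, with 3512 bases of exon. Rflna (ENSMUSG00000037962) lies on the plus strand at chr5:125003221-125012547 with 1940 bases of exon. Flna (ENSMUSG00000031328) lies on the minus strand of the X chromosome at chrX:74223461-74249820 with 9400 bases of exon. How many mice of each sex went into a library is not stated in the sources used here. A stretch of 25 bases of Tlcd3b exon, 0.635% of its length, also belongs to exons of Aldoa on the other strand, and the counting program and its use of strand are not given in the sources used here. No exon of Rflnb, Rflna or Flna is shared with another annotated gene.

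Promoter windows from RefSeq on GRCm38.p6 (250 bases before to 50 after an annotated start) are shown to set the genes that were lower in YT-iKO bECs beside Flna. RefSeq gave 3 windows for Tlcd3b, of which the first 2 in genomic order are printed, and 1 each for Rflnb and Flna. Each is written 5′ to 3′ on the strand of the gene, and capitals mark a match to GGAATG, the core of the TEAD motif, read on either strand.
Tlcd3b, chr7:126816635-126816934, plus strand: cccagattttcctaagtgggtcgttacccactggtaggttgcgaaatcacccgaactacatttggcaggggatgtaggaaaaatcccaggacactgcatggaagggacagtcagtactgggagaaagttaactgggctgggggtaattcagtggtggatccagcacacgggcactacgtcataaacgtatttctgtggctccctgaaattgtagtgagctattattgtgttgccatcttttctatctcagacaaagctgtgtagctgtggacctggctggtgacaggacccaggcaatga
Tlcd3b, chr7:126823053-126823352, plus strand: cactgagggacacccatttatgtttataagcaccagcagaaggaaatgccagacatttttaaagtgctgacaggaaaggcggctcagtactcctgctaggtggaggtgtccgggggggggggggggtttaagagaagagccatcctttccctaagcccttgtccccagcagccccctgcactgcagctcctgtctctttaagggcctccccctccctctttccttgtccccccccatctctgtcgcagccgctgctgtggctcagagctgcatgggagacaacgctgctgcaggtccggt
Rflnb, chr11:76027733-76028032, minus strand: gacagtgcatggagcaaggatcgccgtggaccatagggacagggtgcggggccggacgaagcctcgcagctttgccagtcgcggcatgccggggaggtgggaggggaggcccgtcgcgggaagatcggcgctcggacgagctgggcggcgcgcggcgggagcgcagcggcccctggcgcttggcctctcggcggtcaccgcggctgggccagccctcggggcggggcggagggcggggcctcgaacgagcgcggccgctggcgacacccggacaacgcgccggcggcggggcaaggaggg
Flna, chrX:74246485-74246784, minus strand: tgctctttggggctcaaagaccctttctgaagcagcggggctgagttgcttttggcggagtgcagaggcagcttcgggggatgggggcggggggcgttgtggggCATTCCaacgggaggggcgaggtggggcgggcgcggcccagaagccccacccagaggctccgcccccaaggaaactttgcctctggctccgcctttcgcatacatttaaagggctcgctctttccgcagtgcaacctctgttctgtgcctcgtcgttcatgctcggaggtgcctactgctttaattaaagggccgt
The Flna window held 1 match, read as CATTCC, whose first base is at position -146 from the annotated start. No match to these letters was found in the Rflnb window or in the 3 Tlcd3b windows, among them the third at chr7:126824403-126824702. The GENCODE start of Tlcd3b at chr7:126797668 had no window, and sequence outside the windows was not searched. Control of the genes by TEAD factors was not tested. Over all 32851 promoter windows, 14.7% held the motif. The AP-1 motif TGANTCA, also read on either strand, had no match in the 5 windows and was present in 7.81% of all windows. The windows differed in base composition. Rflnb had 44 CpG dinucleotides and a GC content of 77.0%, more CpG than 97.8% of all windows, and Flna had 19. The Tlcd3b windows had 6, 6 and 1, against a median of 7 over all windows.

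Tlcd3b was lower in YT-iKO bECs than in CTRL bECs after either surgery. After sham surgery, the 4 CTRL libraries had 15.2, 17.7, 18.3 and 21.7 CPM, from 235 to 334 counts. The 4 YT-iKO libraries had 3.15, 4.24, 5.57 and 5.86 CPM, from 56 to 89 counts. The groups were well apart, with the highest YT-iKO library under 6 CPM. The means were 18.2 ± 2.68 and 4.71 ± 1.26 CPM, and the log2 fold change was -1.96 (SE 0.261), which is a 3.88-fold lower level in YT-iKO. After MCAo, CTRL libraries had 18.8, 23.7, 32.3 and 37.6 CPM and YT-iKO libraries had 4.40, 4.81, 6.83 and 8.35 CPM. The groups again did not overlap. The means were 28.1 ± 8.43 and 6.10 ± 1.84 CPM, a log2 fold change of -2.20 (SE 0.259) or a 4.61-fold lower level. Ordered by log2 fold change, Tlcd3b stood 7th from the lowest of 31085 genes after sham and was the lowest after MCAo. These ranks follow from the choice of the gene, and in bulk RNA fewer cells of a type and less RNA per cell cannot be told apart. Beside these counts, 0.0965% of the genes tested were called after sham and 0.0708% after MCAo by edgeR's quasi-likelihood test at an adjusted p under 0.1, and 2.22% and 0.415% were lower in YT-iKO with no overlap between the groups.

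Rflnb was several times more abundant than Tlcd3b and was also lower in YT-iKO bECs. After sham surgery, CTRL libraries had 92.8, 100.3, 110.4 and 120.1 CPM, from 1291 to 1937 counts. YT-iKO libraries had 20.3, 31.2, 40.2 and 51.6 CPM, from 313 to 1071 counts. The lowest CTRL library was far above the highest YT-iKO library. The means were 105.9 ± 11.9 and 35.8 ± 13.3 CPM, a log2 fold change of -1.56 (SE 0.280) or a 2.95-fold lower level, the 22nd lowest. After MCAo, CTRL libraries had 71.6, 77.9, 108.3 and 114.2 CPM and YT-iKO libraries had 15.9, 17.1, 30.5 and 32.8 CPM. The means were 93.0 ± 21.4 and 24.1 ± 8.82 CPM, a log2 fold change of -1.95 (SE 0.284) or a 3.86-fold lower level, the third lowest. Tlcd3b and Rflnb were among 56 of the 31085 genes tested that were lower in YT-iKO with no overlap after both surgeries. Of all genes tested, 2.22% were lower in this way after sham and 0.415% after MCAo. The place of Tlcd3b and Rflnb among the 56, and the ranks of Rflnb, follow from the choice of these genes by their genotype difference.

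**Figure D1:**
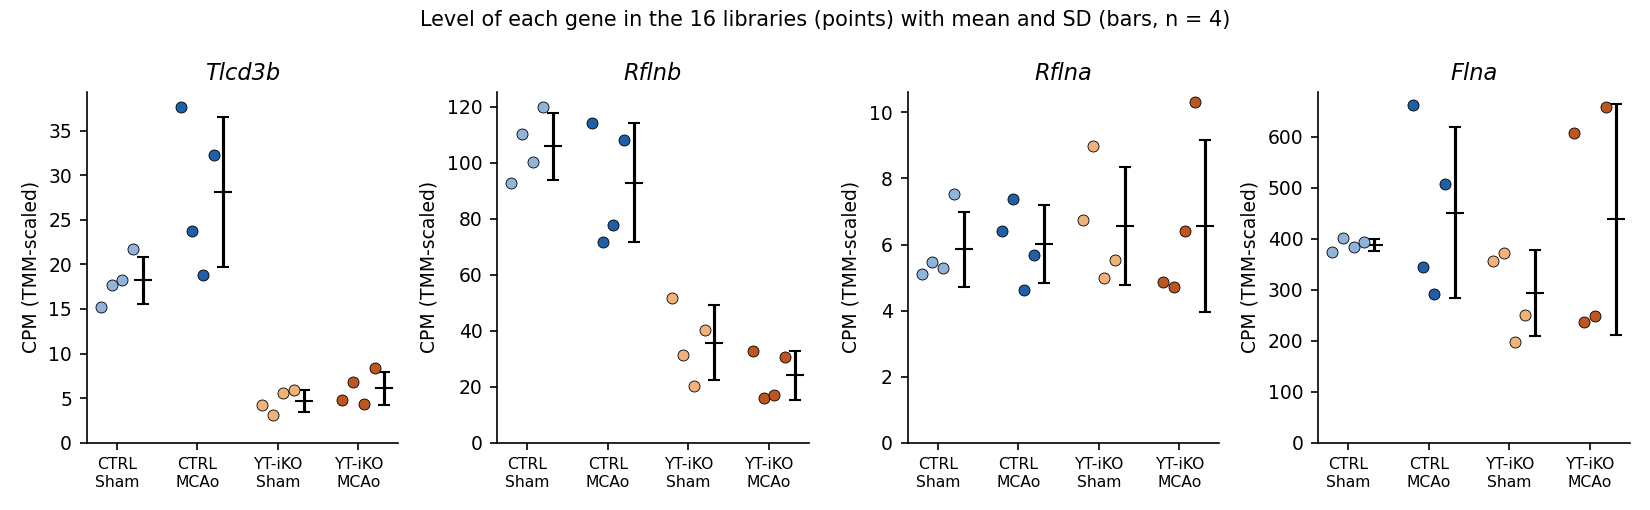
Level of Tlcd3b, Rflnb, Rflna and Flna in CPM (vertical axis, from 0) in the 4 groups, with 1 point per library in order of replicate number and bars for mean and SD. Tlcd3b and Rflnb separate by genotype after either surgery, Rflna overlaps between all groups, and Flna spreads from 236.2 to 658.9 CPM within YT-iKO MCAo.

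Rflna, the other refilin, was low in all 4 groups and did not pass the test between genotypes. CTRL sham libraries had 5.11, 5.29, 5.47 and 7.54 CPM and YT-iKO sham libraries had 4.99, 5.53, 6.75 and 8.99 CPM. After MCAo, CTRL libraries had 4.61, 5.67, 6.42 and 7.37 CPM and YT-iKO libraries had 4.70, 4.87, 6.41 and 10.3 CPM. All groups overlapped, and counts were between 68 and 165. The log2 fold change between genotypes was 0.17 (95% interval -0.38 to 0.71, adjusted p = 0.990 by edgeR) after sham and 0.12 (-0.42 to 0.67, adjusted p = 1.0) after MCAo. The intervals leave out falls of the size seen for Rflnb and still hold smaller changes in either direction. Between surgeries, the log2 fold change was 0.04 (-0.51 to 0.59) in CTRL and -0.004 (-0.55 to 0.54) in YT-iKO, with adjusted p = 1.0 for each by edgeR. The sign of each of these Rflna values turned when 1 library or another was left out.

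Flna was the most abundant of the 4. After sham surgery it had 374.3, 383.9, 393.3 and 400.9 CPM in CTRL and 196.8, 251.1, 355.9 and 371.8 CPM in YT-iKO. Every YT-iKO sham library was below every CTRL sham library, though 2 of them by little. The means were 388.1 ± 11.5 and 293.9 ± 84.0 CPM, and the log2 fold change of -0.40 (SE 0.330) did not pass the test across genes (adjusted p = 0.990 by edgeR). The exact two-sided permutation test of this gene alone gave p = 0.0286, the smallest that 4 libraries against 4 allow, and 2.22% of all genes tested were lower in the same way. In these libraries the summed pericyte and smooth muscle markers, cells in which filamin A is also made, had a median of 832.1 CPM (702.0 to 861.5) in CTRL sham and 596.0 CPM (532.1 to 818.9) in YT-iKO sham, and none of the 10 markers was at 0 in every library. The libraries came from a CD31+ sort, and the share of pericytes and smooth muscle cells left after it was not measured here. The summed endothelial markers were lower too, with a median of 16716 CPM (15454 to 17020) in CTRL sham and 13392 CPM (8854 to 16005) in YT-iKO sham. The part of either class in the Flna values was not tested.

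After MCAo, Flna had 291.9, 344.6, 506.7 and 662.6 CPM in CTRL and 236.2, 249.5, 608.0 and 658.9 CPM in YT-iKO. The genotypes overlapped, with 2 YT-iKO libraries below every CTRL library. The log2 fold change was -0.04 (SE 0.329, 95% interval -0.69 to 0.60, adjusted p = 1.0 by edgeR). Its sign turned when YT-iKO MCAo 2 or 3, or CTRL MCAo 1 or 4, was left out, with values from -0.35 to 0.15 over the 16 libraries left out in turn.

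**Figure D2:**
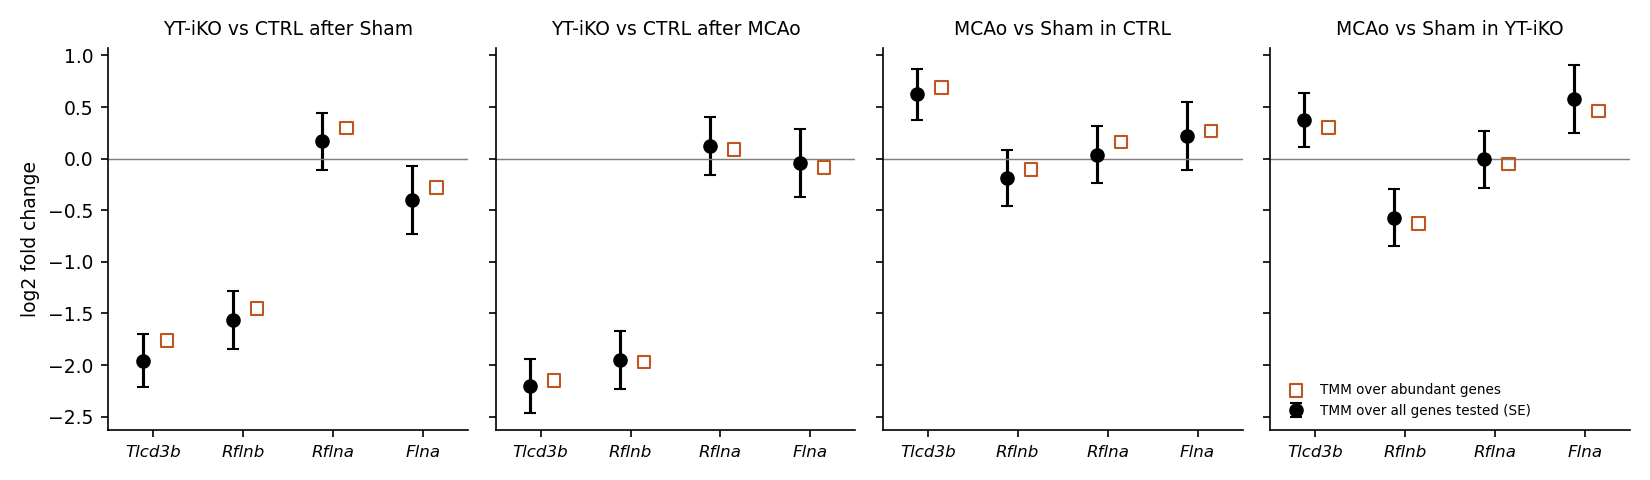
Log2 fold change of each gene (vertical axis) in the comparisons between genotypes and between surgeries, with SE bars and TMM factors over all genes tested (filled circles) and without bars for TMM factors over abundant genes (open squares). Tlcd3b and Rflnb lie between -2.20 and -1.45 in both genotype comparisons on either scale, and the values between surgeries lie between -0.63 and 0.69.

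Between surgeries, the log2 fold changes of the 4 genes lay between -0.57 and 0.62. Tlcd3b and Rflnb were chosen by genotype differences in these same libraries. Their p-values between surgeries, and for the difference in response, are therefore not independent of that choice. In CTRL, Tlcd3b had 15.2 to 21.7 CPM after sham and 18.8 to 37.6 CPM after MCAo, and the groups overlapped. The log2 fold change was 0.62 (SE 0.246, 95% interval 0.14 to 1.11), and it did not pass the test (unadjusted p = 0.0188 and adjusted p = 1.0 by edgeR, exact permutation p = 0.0571). In this comparison 0.216% of the genes tested were called. With scaling factors from abundant genes (those averaging 10 CPM or more), where 1.78% of genes were called, the 4 MCAo libraries had 23.7, 27.6, 29.2 and 29.3 CPM and the sham libraries 14.2, 16.6, 16.7 and 20.7 CPM. On this scale the groups did not overlap, as for 4.69% of the genes tested that were higher after MCAo, and the adjusted p was 0.316 by edgeR. A fit of the CTRL libraries alone called Tlcd3b (log2 fold change 0.63, adjusted p = 0.0473 by edgeR), where 2.52% of genes were called, and so did limma-voom with library weights (0.41, adjusted p = 0.0796), which called 24.2% of all genes there. The summed level of 5 fibroblast markers was 16.9 to 19.1 CPM in CTRL sham and 26.1 to 31.5 CPM in CTRL MCAo, with no overlap, and its medians in YT-iKO were 18.4 CPM (17.0 to 34.8) and 30.5 CPM (26.0 to 34.0). Lum was at 0 in 1 library, and the other 4 markers in none. The part of such cells in the differences between surgeries given here and for the gene lists was not tested.

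Rflnb had lower means after MCAo than after sham in both genotypes. In CTRL its log2 fold change was -0.19 (SE 0.273, adjusted p = 1.0 by edgeR), with 92.8 to 120.1 CPM after sham and 71.6 to 114.2 CPM after MCAo. In YT-iKO, where 0.318% of the genes tested were called, it had 20.3 to 51.6 CPM after sham and 15.9 to 32.8 CPM after MCAo. The log2 fold change was -0.57 (SE 0.276, 95% interval -1.12 to -0.03), with unadjusted p = 0.0499 and adjusted p = 1.0 by edgeR and exact permutation p = 0.171. With factors from abundant genes it was -0.63 and passed the test (adjusted p = 0.0688 by edgeR), where 1.72% of genes were called. This test shares the YT-iKO libraries with the choice of Rflnb. On that scale the libraries had 21.1, 21.4, 22.4 and 28.8 CPM after MCAo against 27.2, 28.9, 42.3 and 46.5 CPM after sham. These groups overlapped through 1 library of MCAo. DESeq2 gave -0.60 with an adjusted p of 0.553. The limma-voom fit with library weights called Rflnb lower after MCAo in CTRL (-0.42, adjusted p = 0.0708) and in YT-iKO (-1.12, adjusted p = 0.0027), where it called 24.2% and 18.1% of all genes. Tlcd3b in YT-iKO had a log2 fold change of 0.38 (SE 0.260, adjusted p = 1.0 by edgeR).

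Flna after MCAo spread widely in both genotypes. Its log2 fold change was 0.22 (SE 0.329) in CTRL and 0.58 (SE 0.330) in YT-iKO, with adjusted p = 1.0 for each by edgeR, and the MCAo libraries overlapped with those of sham in each. The difference in MCAo response between genotypes was -0.25 (SE 0.358) for Tlcd3b, -0.39 (SE 0.388) for Rflnb, -0.04 (SE 0.393) for Rflna and 0.36 (SE 0.466) for Flna, all with adjusted p = 1.0 by edgeR. By edgeR and by DESeq2, 0 of the 31085 genes (0%) were called for this difference, and 116 (0.373%) had an unadjusted p under 0.05.

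The libraries differed in the density of reads over chemosensory receptor genes, taken here as a measure of background. This density, over 1463 autosomal olfactory, vomeronasal and taste receptor genes, ranged from 0.0336 to 0.369 CPM per kb of exon. TMM factors over all genes ranged from 0.743 to 1.40, against 0.938 to 1.04 over abundant genes (mean of 10 CPM or more). With the latter, the SD of Tlcd3b in CTRL MCAo was 2.62 CPM in place of 8.43 CPM, and that of Flna 64.7 CPM in place of 167.8 CPM. Other SDs rose, among them that of Tlcd3b from 1.26 to 2.09 CPM in YT-iKO sham and from 1.84 to 2.12 CPM in YT-iKO MCAo. The SD of Rflna in CTRL MCAo rose from 1.17 to 1.68 CPM. The part of the background in these spreads was not tested. If such background were spread evenly over exons, which was not tested, it would make up 3.75% of the Tlcd3b counts in CTRL sham and 18.0% in YT-iKO sham. With that amount taken off and factors from abundant genes, the log2 ratio of group means for Tlcd3b was -1.99 after sham and -2.34 after MCAo, and for Rflnb it was -1.48 and -2.02. The change of factors moved the median log2 fold change of all genes from 0.11 to 0.301 for the genotypes after sham, and from 0.0685 to 0.211 for MCAo in CTRL. Relative to that median, the sham genotype difference was -2.07 and -2.06 for Tlcd3b on the 2 scales, and -1.67 and -1.75 for Rflnb. For Flna it was -0.51 and -0.58, while the log2 fold change itself was -0.40 and -0.28. The median is over genes of all levels, not over genes as abundant as Flna. For MCAo in CTRL, Tlcd3b was 0.56 and 0.48 above the median.

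Levels of different genes were compared per length, in CPM per kb of exon. In CTRL sham the order was Flna with 41.3 ± 1.22, Rflnb with 30.2 ± 3.39, Tlcd3b with 4.63 ± 0.681 and Rflna with 3.02 ± 0.585. Flna and Rflnb were above 97.8% and 96.5% of the genes with a known length, Tlcd3b above 74.7% and Rflna above 68.2%. Tlcd3b and Rflna overlapped slightly over the libraries, but within each CTRL sham library Rflna was at 0.587 to 0.704 of the Tlcd3b level. In CTRL MCAo the order was the same, with Flna and Rflnb overlapping. In YT-iKO sham, Flna had 31.3 ± 8.94, Rflnb 10.2 ± 3.79, Rflna 3.38 ± 0.916 and Tlcd3b 1.20 ± 0.319, so the order of the last 2 was turned and none of the neighbours overlapped. In YT-iKO MCAo, Flna had 46.6 ± 24.1 and Rflnb 6.85 ± 2.51, and Rflnb then overlapped with Rflna at 3.38 ± 1.34, while Tlcd3b was lowest at 1.55 ± 0.467.

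Ratios of 2 genes within a library do not depend on its scaling factor and show the balance of filamin A and refilin transcripts. Per length, Flna was 1.38 ± 0.121 times Rflnb in CTRL sham (1.22 to 1.51) and 1.78 ± 0.314 times in CTRL MCAo (1.40 to 2.17). In YT-iKO the ratio was 3.25 ± 0.980 after sham (2.33 to 4.45) and 6.51 ± 1.24 after MCAo (5.45 to 8.08). All YT-iKO libraries were above all CTRL libraries, and within YT-iKO all MCAo libraries were above all sham libraries. The genotype difference follows in part from the choice of Rflnb. The changes with MCAo given next use the libraries that chose Rflnb and Tlcd3b, so they are not independent of that choice. The change with MCAo in YT-iKO was 2.05-fold (log2 difference 1.03, exact permutation p = 0.0286, adjusted p = 0.114 over 12 such ratios chosen after the data were seen), and in CTRL it was 1.28-fold (exact permutation p = 0.0857, adjusted p = 0.206). Neither passed the threshold once adjusted, and the difference between genotypes in this change was not tested. Rflnb was 10.1 ± 0.987 times Rflna in CTRL sham, 8.77 ± 2.33 times in CTRL MCAo, 3.10 ± 1.19 times in YT-iKO sham and 2.17 ± 1.05 times in YT-iKO MCAo. Against Tlcd3b, Rflnb was 6.55 ± 0.427 times as high in CTRL sham and 3.80 ± 0.589 times in CTRL MCAo, with no overlap (exact permutation p = 0.0286, adjusted p = 0.114). Flna against Tlcd3b moved the same way in CTRL, from 9.04 ± 1.15 to 6.64 ± 0.542, with the same p-values.

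**Figure D3:**
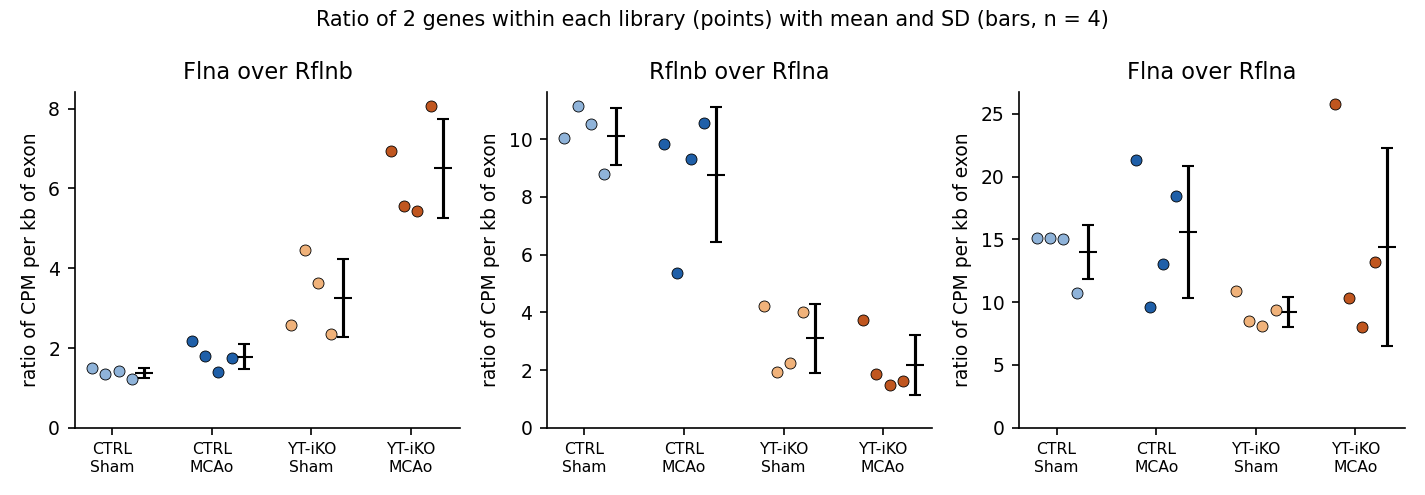
Ratio of CPM per kb of exon between 2 genes within each library (vertical axes, from 0), with points for libraries and bars for mean and SD in each group. Flna over Rflnb is 1.22 to 2.17 in CTRL and 2.33 to 8.08 in YT-iKO, Rflnb over Rflna is lower in YT-iKO, and Flna over Rflna overlaps between groups.

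None of the tested neighbours of Tlcd3b and Rflnb was called between genotypes by edgeR, where 0.0965% of all genes after sham and 0.0708% after MCAo were called, so that a count of 0 is near the background. Within 100 kb of Tlcd3b, 18 of 25 annotated genes were tested, with 0 called. After sham 8 of the 18 were lower in YT-iKO, against 39.9% of all genes tested, with a median log2 fold change of 0.08 and a range from -0.53 to 1.67. After MCAo 9 of 18 were lower, against 44.5%, with a median of -0.005 and a range from -0.26 to 0.54. Doc2a, with the highest value after sham (1.67, SE 0.726), had an unadjusted p of 0.0316. Aldoa, the glycolytic enzyme gene that shares exon bases with Tlcd3b, had -0.33 (SE 0.247) after sham and -0.21 (SE 0.247) after MCAo. Its 4 YT-iKO sham libraries lay below those of CTRL, as for 2.22% of all genes tested. Of the 18 neighbours tested, 2 had no overlap between genotypes, in either direction, after sham and 0 after MCAo. Over all genes tested, 2.22% were lower and 1.63% higher in YT-iKO with no overlap after sham. After MCAo these shares were 0.415% and 0.566%. Within 100 kb of Rflnb, all 4 annotated genes were tested and 0 were called. Vps53, which encodes a subunit of a vesicle tethering complex, had -0.11 (SE 0.206) after sham and 0.08 (SE 0.206) after MCAo, and 1700016K19Rik, Glod4 and Rph3al had values from -0.28 to 0.56.

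**Figure D4:**
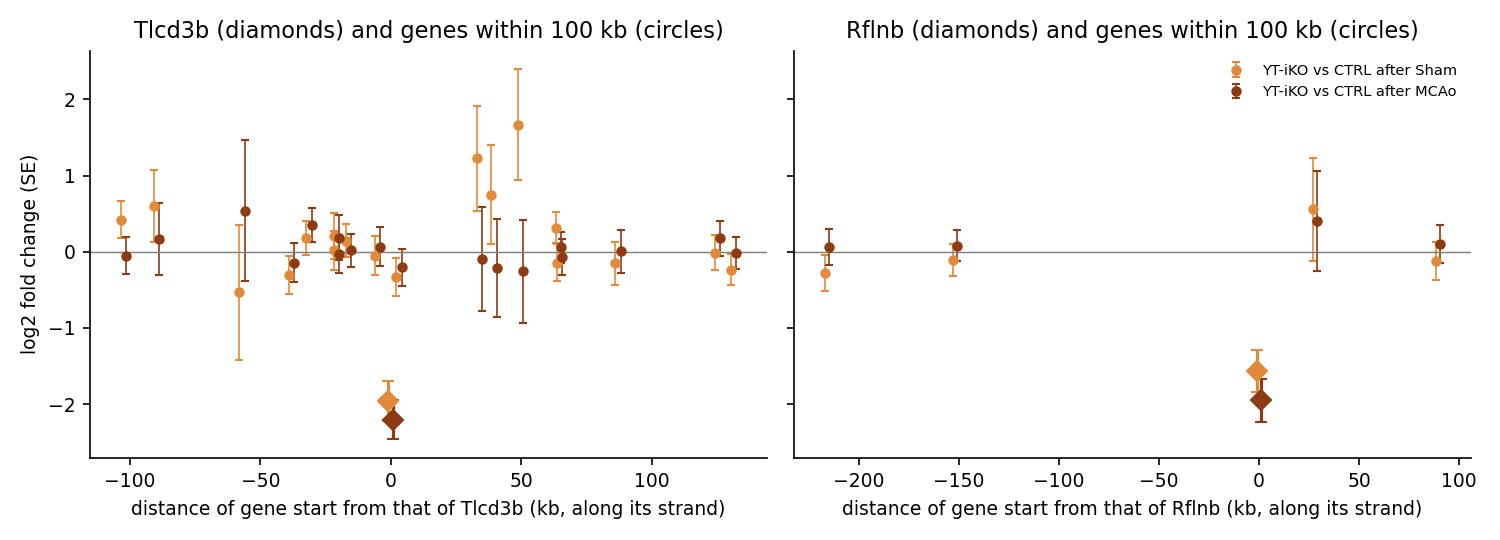
Log2 fold change with SE (vertical axis) of Tlcd3b and Rflnb (diamonds) and of the genes tested within 100 kb of each (circles), against the distance of each gene's start from that of the named gene in kb along its strand, for the genotype comparison after sham and after MCAo. The named genes lie between -2.20 and -1.56 and their neighbours between -0.53 and 1.67.

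The filamin partner and actin crosslinker list held 36 genes, all of them tested, and 0 passed edgeR's test in any comparison. From 0% to 0.318% of all genes passed in these comparisons, so 0 of 36 is near the background. Between genotypes, 26 of 36 were lower after sham and 20 of 36 after MCAo, against 39.9% and 44.5% of all genes. The list medians were -0.10 and -0.02, against 0.11 and 0.03 over all genes tested. The values over all genes depend on the scaling, and their median after sham was 0.301 with abundant-gene factors. Neither gene list was set against genes of like abundance, so a shift of the list was not tested. The summed pericyte and smooth muscle markers had medians of 832.1 CPM in CTRL sham and 596.0 CPM in YT-iKO sham. The endothelial markers had 16716 and 13392 CPM. The part of either class in the genotype differences of this list and of the TLC-domain and ceramide list was not tested. Unadjusted p-values under 0.05 were found for 3 and 2 of them, against 2.16% and 1.49% of all genes. Synpo2, which encodes an actin-bundling partner of filamin, had 298.0 ± 27.2 CPM in CTRL sham and 169.5 ± 41.8 CPM in YT-iKO sham, with log2 fold changes of -0.81 (SE 0.256) after sham and -0.89 (SE 0.257) after MCAo. DESeq2 called Synpo2 alone in each (adjusted p = 0.0885 and 0.0184), where it called 0.261% and 0.296% of genes. Sptan1, the nonerythroid alpha spectrin, was at -0.73 (SE 0.283) after sham. Itgb3, the integrin beta 3 subunit, had the other sign, with 30.4 ± 13.5 CPM in YT-iKO MCAo and 19.6 ± 3.91 CPM in CTRL MCAo (log2 fold change 0.64, SE 0.265, unadjusted p = 0.0256 and adjusted p = 1.0 by edgeR). With factors from abundant genes, the genes that edgeR called included Sptan1 after sham and Sptan1 and Smad3 after MCAo, each lower in YT-iKO, where 0.37% and 0.582% of all genes were called. Flnc, the muscle filamin, had 4.86 ± 1.15 CPM in CTRL sham and 7.28 ± 5.26 CPM in YT-iKO sham (log2 fold change 0.58, SE 0.448).

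After MCAo, 14 of the 36 genes were lower in CTRL and 11 of 36 in YT-iKO, against 42.9% and 52.4% of all genes, with medians of 0.11 and 0.13 against 0.07 and -0.02 over all genes tested. Unadjusted p-values under 0.05 were found for 4 and 7 of them, against 3.5% and 3.01% of all genes. In CTRL the lowest p-values were those of Lcp1, a leukocyte actin bundler (log2 fold change 0.97, SE 0.240), and Fblim1, which encodes the filamin-binding protein migfilin (1.16, SE 0.290), followed by Itgb3 and Vim (0.81 and 0.88). DESeq2 called Lcp1 and Fblim1 in CTRL, where it called 0.714% of genes, and Itgb3 in YT-iKO at 1.07 with an adjusted p of 0.0119, where it called 0.859%. In YT-iKO by edgeR, Itgb3 was at 1.10 (SE 0.268, adjusted p = 0.125), followed by Fblim1 at 0.95 (SE 0.285), Lcp1 at 0.72 (SE 0.239) and Fscn1, which encodes fascin, at 1.37 (SE 0.473). Factors from abundant genes gave 7 calls in CTRL and 8 in YT-iKO, 5 and 6 of them higher after MCAo, where 1.78% and 1.72% of all genes were called.

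Of the 43 genes in the TLC-domain and ceramide list, 42 were tested and edgeR called 0 in any comparison, against the same 0% to 0.318% of all genes. Between genotypes, 29 of 42 were lower after sham and 24 of 42 after MCAo, against 39.9% and 44.5% of all genes. The list medians were -0.12 and -0.07, against 0.11 and 0.03 over all genes tested. As for the other list, the values over all genes depend on the scaling, and genes of like abundance were not compared. Unadjusted p-values under 0.05 were found for 2 and 1 of the 42 genes, against 2.16% and 1.49% of all genes. Tlcd3a, the paralogue of Tlcd3b, had 22.1 ± 0.993 CPM in CTRL sham and 15.7 ± 4.58 CPM in YT-iKO sham. Its log2 fold change was -0.50 (SE 0.273, adjusted p = 0.990 by edgeR), with no overlap, as for 2.22% of all genes tested that were lower in YT-iKO sham. After MCAo the log2 fold change of Tlcd3a was -0.07 (SE 0.271). Sgms2, a sphingomyelin synthase that uses ceramide, was at -0.72 (SE 0.239) after sham and -0.59 (SE 0.239) after MCAo. With factors from abundant genes edgeR called Sgms2 after sham (-0.59, adjusted p = 0.0762). Sphk1, sphingosine kinase 1, was higher in mean, with 2.53 ± 1.26 CPM in YT-iKO sham and 1.11 ± 0.333 CPM in CTRL sham. Its log2 fold change was 1.18 (SE 0.484, unadjusted p = 0.0231 and adjusted p = 0.990 by edgeR) after sham and 0.10 (SE 0.468) after MCAo. After MCAo, 14 of 42 were lower in each genotype, against 42.9% of all genes in CTRL and 52.4% in YT-iKO, with medians of 0.14 and 0.18 against 0.07 and -0.02 over all genes tested. Unadjusted p-values under 0.05 were found for 7 and 6 of them, against 3.5% and 3.01% of all genes. Tram2, a TLC-domain protein of the translocon, had 46.0 ± 3.69 CPM in CTRL sham and 105.7 ± 40.6 CPM in CTRL MCAo, with log2 fold changes of 1.20 (SE 0.288, adjusted p = 0.139) in CTRL and 1.15 (SE 0.288, adjusted p = 0.157) in YT-iKO by edgeR. DESeq2 called it in both (adjusted p = 0.00185 and 0.00509), together with Cerk, ceramide kinase, in YT-iKO (0.91, adjusted p = 0.0521). Among the edgeR alternatives, the replicate block called Tram2 in both (adjusted p = 0.0238 and 0.0306), where 0.383% and 0.425% of genes were called. Factors from abundant genes did so too (adjusted p = 0.0001 and 0.00044 by edgeR), where 1.78% and 1.72% were called. The ceramide synthase genes Cers2 to Cers6 were not called by edgeR in any comparison.

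**Figure D5:**
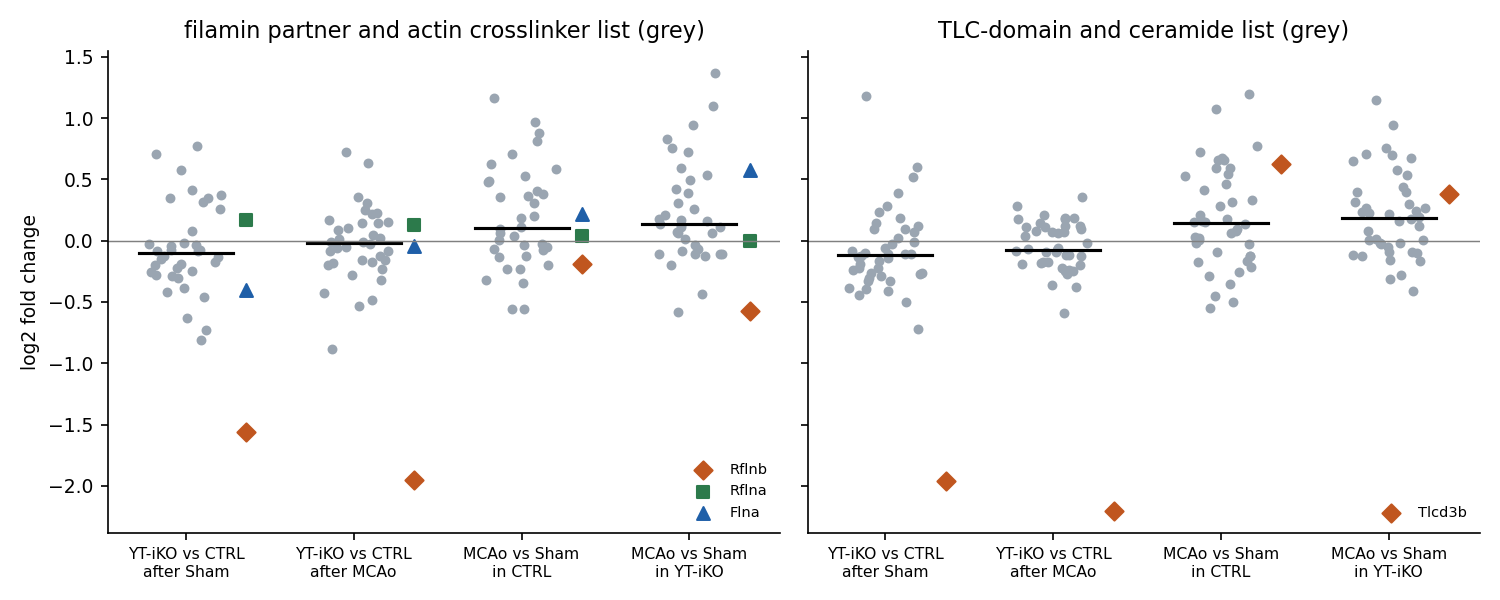
Log2 fold change (vertical axis) of the genes of the filamin partner and actin crosslinker list and of the TLC-domain and ceramide list (grey points, with a line at the list's median) in 4 comparisons, with the 4 named genes as coloured symbols. The grey points lie between -0.89 and 1.37, and Rflnb and Tlcd3b lie below all of them in both genotype comparisons.

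The genes with the most similar pattern were sought among the 9132 genes that averaged 10 CPM or more, by Pearson's r of log2(CPM + 1) over the 16 libraries, which share genotype groups and library background. Closest to Tlcd3b were Wwtr1 (r = 0.934), Hrct1 (0.923), Rnase4 (0.922), Vash1 (0.914) and Serpinb6b (0.914), against a median of 0.181 over all genes compared. Closest to Rflnb were Amotl2 (0.968), Ndnf (0.966), Cdkn2b (0.959), Yap1 (0.950) and Ctsh (0.942), against a median of 0.377. The 5 genes nearest to each were all lower in YT-iKO, with log2 fold changes from -2.02 to -0.81. This direction follows from the choice of Tlcd3b and Rflnb by their genotype difference, so no conclusion is drawn from it. With the group means taken off, r fell to between 0.381 and 0.553 for the genes near Tlcd3b and to between 0.742 and 0.843 for those near Rflnb. Rflna was closest to Phf21b (0.789). Flna was closest to Piezo1 (0.976), which encodes a mechanically gated channel, with a median of 0.762 over all genes.

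Within a genotype, relations of Tlcd3b and Rflnb to the targeted genes and to each other were computed over 8 libraries, and 2 of 10 passed the threshold of 0.1. Over the CTRL libraries, Tlcd3b correlated with Wwtr1 (Pearson r = 0.863, exact permutation p = 0.0188, adjusted p = 0.0942 over 10 relations), while Spearman's rho was 0.333 (exact permutation p = 0.428). Without the 2 libraries farthest from the median of Wwtr1 the r was -0.254, so on this scale the relation rests on them, and with the means of the surgery groups taken off it was 0.857. With factors from abundant genes the r was 0.891 (exact permutation p = 0.00838, adjusted p = 0.0838) and rho was 0.833 (exact permutation p = 0.0154, adjusted p = 0.154). On that scale r was 0.804 without the 2 farthest libraries, and 0.295 with the means of the surgery groups taken off. Rflnb correlated with Yap1 in CTRL (r = 0.867, exact permutation p = 0.0118, adjusted p = 0.0942), with a rho of 0.667 (exact permutation p = 0.0831), an r of 0.335 without the 2 farthest libraries and 0.872 with the surgery means taken off. With factors from abundant genes these were 0.435 for r (exact permutation p = 0.286, adjusted p = 0.738), 0.690 for rho (exact permutation p = 0.0694), 0.571 without the 2 farthest and 0.479 with the surgery means taken off. The 3 further relations in CTRL and the 5 in YT-iKO had adjusted p of 0.233 or more by the exact permutation test. Leaving out the 2 farthest libraries raised r from 0.459 to 0.944 for Tlcd3b with Yap1 in CTRL and from 0.684 to 0.904 for Rflnb with Yap1 in YT-iKO. On the other scale these r values were 0.194 and -0.0532 over all 8 libraries, and -0.285 and -0.107 without the 2 farthest on that scale.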

How the data were processed

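Reads of 16 SMART-Seq libraries were mapped by the authors with STAR 2.7.8a to GRCm38 and deposited as raw counts per gene, in whole numbers and without normalization. Libraries were mapped to groups by their titles. Each is a pool of mice, so the pool is the replicate. The members and the gene lists were chosen with earlier results of these data known. R 4.3.3 was used with edgeR 4.0.16, limma 3.58.1 and DESeq2 1.42.0, and Python 3.11.15 with numpy 2.4.6, scipy 1.17.1, pandas 2.3.3 and matplotlib 3.10.9.

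Genes were kept by filterByExpr (minimum count 10, minimum total 15), which left 31085 of 37003. Genes were compared with edgeR (quasi-likelihood fit, TMM factors) with all 4 groups in 1 model (common dispersion 0.16), Benjamini-Hochberg adjustment over all genes tested and a threshold of 0.1. For 1 gene at a time, log2(CPM + 1) was compared by permuting the libraries (exact, two-sided, 70 assignments), and correlations used all 40320 pairings. Intervals are 95% from the fit. Differences between genotypes in Tlcd3b and Rflnb have no p, since they chose the genes. The genes named were the 4 members, Yap1 and Wwtr1, genes sharing exons with a member, the 5 most alike genes, genes within 100 kb, paralogues, and from each list up to 4 with the lowest p in each comparison. Smad3, Cers2 to Cers6, Phf21b and Piezo1 were named after their values were seen. A gene that this rule names is not reported here, though counts and medians over its list hold it. Gene positions and exon lengths came from GENCODE M21, in which 36861 gene identifiers were found, and promoter sequences from RefSeq. The fits were tested on simulated data. Depth of 11418262 to 23074547 counts per library limits the low genes most, and intervals on counts of a pool do not cover differences between mice.

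Alternatives were RLE factors, TMM factors from abundant genes (10 CPM or more on average), no filter, CPM above 1 in 4 libraries, DESeq2, limma-voom with quality weights, only the groups compared, a replicate block, a threshold of 0.05 and each library left out. Values with a background assumed even over exons taken off and ratios of 2 genes within a library were added after the data were seen.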

Additional observations from a re-analysis of the deposited data

Results flagged for a closer look

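Rflna in the library CTRL sham 4 was set apart from the other 3 of its group. It had 7.54 CPM, and its gap to the nearest of them was 0.851 of the range of the group, above Dixon's 95% critical value for 4 samples. Of the 24 groups tested in this way it was the 1 set apart, and chance alone marks about 1 in 20.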

How the results depend on the processing

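Tlcd3b and Rflnb stayed lower in YT-iKO, and moved by less than the spread between replicates, under all alternatives run. Leaving out each library in turn gave log2 fold changes of -2.09 to -1.81 after sham and -2.4 to -2.08 after MCAo for Tlcd3b, and -1.77 to -1.36 and -2.23 to -1.82 for Rflnb. Between surgeries it gave 0.504 to 0.746 (CTRL) and 0.168 to 0.503 (YT-iKO) for Tlcd3b, -0.273 to -0.082 and -0.854 to -0.422 for Rflnb, and 0.0246 to 0.345 and 0.263 to 0.771 for Flna. For Rflna it gave -0.0251 to 0.326 (genotypes after sham), -0.19 to 0.23 (after MCAo), -0.0733 to 0.204 (MCAo in CTRL), -0.312 to 0.124 (MCAo in YT-iKO) and -0.37 to 0.0674 (difference in response), and for Flna -0.538 to -0.246 (genotypes after sham) and -0.346 to 0.151 (after MCAo). None of the 4 genes was called in a tested comparison with any library left out. The list counts with a library left out ranged from 0.0 to 2.0 for each list.

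Tlcd3b after MCAo in CTRL was called by limma-voom (0.41) and with only the groups compared (0.63). Rflnb after MCAo was called by limma-voom in CTRL (-0.42) and YT-iKO (-1.12) and with abundant-gene factors in YT-iKO (-0.629). Limma-voom turned the sign of Rflna between genotypes after MCAo (-0.107) and of Flna after MCAo in CTRL (-0.121), in YT-iKO (-0.225) and in the difference in response (-0.104). The cause was not tested. With abundant-gene factors the r of Rflnb with Yap1 in CTRL fell to 0.435, and the sign turned for Rflnb with Wwtr1 in CTRL (-0.369), Tlcd3b with Rflnb in CTRL (-0.108), and Rflnb with Yap1 (-0.0532) and Wwtr1 (-0.49) in YT-iKO.

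Calls in the filamin partner and actin crosslinker list, in the order genotypes after sham, genotypes after MCAo, MCAo in CTRL and MCAo in YT-iKO, were 2, 3, 7 and 8 with abundant-gene factors, 1, 1, 2 and 1 with DESeq2, and 3, 2, 21 and 12 with limma-voom. For MCAo in CTRL they were 1 with RLE factors, 1 with no filter, 2 with CPM above 1 in 4 libraries, 2 with the replicate block and 4 with only the groups compared. The block gave 1 and the CPM filter 1 for MCAo in YT-iKO, and only the groups compared gave 1 for the genotypes after sham. In the TLC-domain and ceramide list, in the same order, they were 1, 0, 6 and 5, then 0, 0, 1 and 2, then 1, 1, 18 and 8. For MCAo in CTRL they were 1 with RLE factors, 1 with no filter, 1 with the CPM filter, 1 with the replicate block and 3 with only the groups compared, and MCAo in YT-iKO gave 1 with the CPM filter and 1 with the block, and the genotypes after sham gave 1 with only the groups compared. Over all genes, calls were 30, 22, 67 and 99 in this order, and 115, 181, 554 and 534 with abundant-gene factors, 81, 92, 222 and 267 with DESeq2, 143, 257, 7538 and 5626 with limma-voom, 126, 32, 623 and 17 with only the groups compared, and 40, 34, 119 and 132 with the replicate block. For MCAo in CTRL they were 98 (0.315%) with RLE factors, 94 (0.254%) with no filter and 121 (0.474%) with the CPM filter, which gave 137 (0.536%) for MCAo in YT-iKO.

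Libraries with the same replicate number deviated together in part (median r 0.259 over 24 pairs, 17 of them over 0.1, against -0.128 over 72 other pairs), and the numbers were not read as pairs. The replicate block changed no call of the 4 genes. Counts of 56 to 134 for Tlcd3b in YT-iKO and 68 to 165 for Rflna limit what small changes could be seen.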
